A study of Mus musculus with 4 samples.

Results

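The nuclear-encoded subunits of oxidative phosphorylation build the 5 protein complexes of the inner mitochondrial membrane that turn fuel and oxygen into ATP. The genes described here are those whose listed symbol matched the name patterns of the subunits of complexes I to V (Nduf, Sdh, Uqcr and Cyc1, Cox and Atp5), with pseudogene entries and the 7 listed Ndufaf assembly factors left out. This gave 86 of the 23990 genes in the tables: 38 for complex I, 4 for complex II, 9 for complex III, 18 for complex IV and 17 for complex V. The choice rests on names and not on measured levels. Some genes carry a subunit name for another role: Atp5s encodes coupling factor B, Atp5sl a factor for building complex I, and Ndufa4, counted here with complex I by its name, encodes a protein now assigned to complex IV.

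Complex I takes electrons from NADH and complex II takes them from succinate, and both pass them to ubiquinone. Complex III hands them on to cytochrome c, and complex IV, cytochrome c oxidase, passes them to oxygen. Complexes I, III and IV pump protons, and complex V, the ATP synthase, uses the returning protons to make ATP. The mitochondrial genome encodes the remaining subunits, which are not analysed here. In the alveolus, surfactant-making type 2 (AT2) cells are rich in mitochondria, while type 1 (AT1) cells are thin cells for gas exchange with sparse organelles.

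The study asked what the transcription factor Sox2 does when it is switched on in AT1 cells. RNA was sequenced from AT1 cells sorted from strips of the lung edge of mice of a mixed B6 and 129 background at postnatal day 3 to 4, in 4 libraries. The 2 libraries labelled Sox2 have the genotype label Scnn1a-Cre; Rosa[Sox2/+], and the 2 libraries labelled control, titled WT, have Scnn1a-Cre; Rosa[mTmG/+], a Cre-dependent membrane reporter. All of the mice thus carried Cre at the gene of an epithelial sodium channel subunit, and both genotypes came from littermates. The gate that defined AT1 cells is not given in the sources used here. The labels do not say whether the libraries of a group are from different animals, and a p-value therefore reflects the spread between libraries only, which may be technical.

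The level of Sox2 went against the labels: it was 1.41 and 1.99 FPKM in Sox2-labelled libraries, against 302 and 477 FPKM in control-labelled libraries (limma log2 difference -7.15, adjusted p = 2.39e-06). Every direction below follows the labels as deposited and runs against the level of that gene. Summed AT1 markers (12 genes) stood at 7734 to 8776 FPKM in Sox2-labelled libraries and at 837 to 1409 FPKM in control-labelled libraries, and summed AT2 markers (9 genes) at 18159 to 26199 FPKM in Sox2-labelled libraries and 1012 to 6175 FPKM in control-labelled libraries. Cell division markers (10 genes) summed to 75.6 to 172 FPKM in Sox2-labelled libraries and 356 to 610 FPKM in control-labelled libraries, and 9 of the 10 were lower at an adjusted p under 0.05 in limma. Basal cell markers (6 genes) summed to 1.70 to 2.37 FPKM in Sox2-labelled libraries and 45.5 to 167 FPKM in control-labelled libraries. Most of that control-labelled sum was Dapl1, at 41.6 and 150 FPKM, and Trp63 had 2.38 and 14.4 FPKM there. Krt5 reached at most 0.69 FPKM. Krt15 lay slightly the other way, with means of 1.67 FPKM in Sox2-labelled and 1.45 FPKM in control-labelled libraries. Club cell markers (5 genes) summed to 3538 to 6026 FPKM in Sox2-labelled libraries and 1950 to 2158 FPKM in control-labelled libraries. Among them Cyp2f2 had 94.3 and 107 FPKM in Sox2-labelled libraries and 72.6 and 376 FPKM in control-labelled libraries, which overlap. Erythroid markers (7 genes) summed to 273 and 1240 FPKM in Sox2-labelled libraries and 74.0 and 334 FPKM in control-labelled libraries. In bulk libraries such as these, a different mix of cells and a different amount of each transcript per cell cannot be told apart, and the part of these shifts in the results below was not tested. Labelled control replicate 2 stood apart in small RNA genes, those with Mir or Snor symbols, which summed to 367471 FPKM there and to 16835 to 94467 FPKM in the other libraries.

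Nearly all of these genes were well expressed in every library. Of the 86, 82 reached a mean of 1 FPKM over the 4 libraries and were tested. FPKM counts fragments per transcript length and sequencing depth. Levels of different genes are set side by side as a description only, because differences between libraries varied with transcript length (below). Median levels of the tested genes, as means over the 4 libraries, were 56.3 FPKM in complex I, 46.8 in complex II, 118.7 in complex III, 123 in complex IV and 161 in complex V. The highest single level was that of Cox6a1 in complex IV (361 FPKM), followed by Atp5b, the catalytic beta subunit of the ATP synthase (337 FPKM). Cox7b2, Cox8b and Cox8c were listed at 0 in every library, and Cox6a2 stayed below the limit for testing.

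As a set, the transcripts stood lower in Sox2-labelled libraries in every complex, except that the median of complex IV came to 0.05 once a trend with transcript length was removed. Their summed level was 7005 and 5638 FPKM in Sox2-labelled libraries, against 10313 and 10381 FPKM in control-labelled libraries. The log2 difference (labelled Sox2 minus labelled control, computed on log2(FPKM + 1)) was negative for 79 of the 82 tested genes, against 67.5% of all 12040 tested genes. Its median was -0.69 over the 82 genes and -0.29 over all tested genes. In deposited FPKM, both libraries labelled Sox2 lay below both labelled control in 75 of the 82 genes, a pattern that 42.5% of all tested genes showed, and above both in 1 (15.7% of all tested genes). Here and below, this order of libraries depends on their scaling and was not counted after it. The median-of-ratios factors were 1.03 and 0.757 for Sox2-labelled libraries and 1.27 and 1.01 for control-labelled libraries. Scaling each library by median-of-ratios, which brings the median of all tested genes to 0.00, left a median of -0.35 with 71 of 82 genes negative. The sum on that scale was 6798 and 7445 FPKM in Sox2-labelled libraries and 8124 and 10327 FPKM in control-labelled libraries.

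Few single genes passed the test. With limma and an adjusted p under 0.05 over all tested genes, 7 of the 82 were lower in Sox2-labelled libraries, where 8.11% of all tested genes were, and 0 were higher, where 4.2% were. The share called, 8.54%, is close to that background and is no result about these genes. At an unadjusted p under 0.05 in limma, 44 of the 82 were lower and 0 were higher, against 21.1% and 8.47% of all tested genes. The 7 are Ndufb6, Ndufab1, Ndufa12, Ndufa4, Ndufb4, Cox5a and Atp5j. Without labelled Sox2 replicate 2 none of the 7 kept its call and the median over the set was -0.52; median-of-ratios scaling left 2 calls, Ndufab1 and Ndufb6, where 5.7% of all tested genes were lower, and 0 higher, where 8.01% were.

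**Figure D1:**
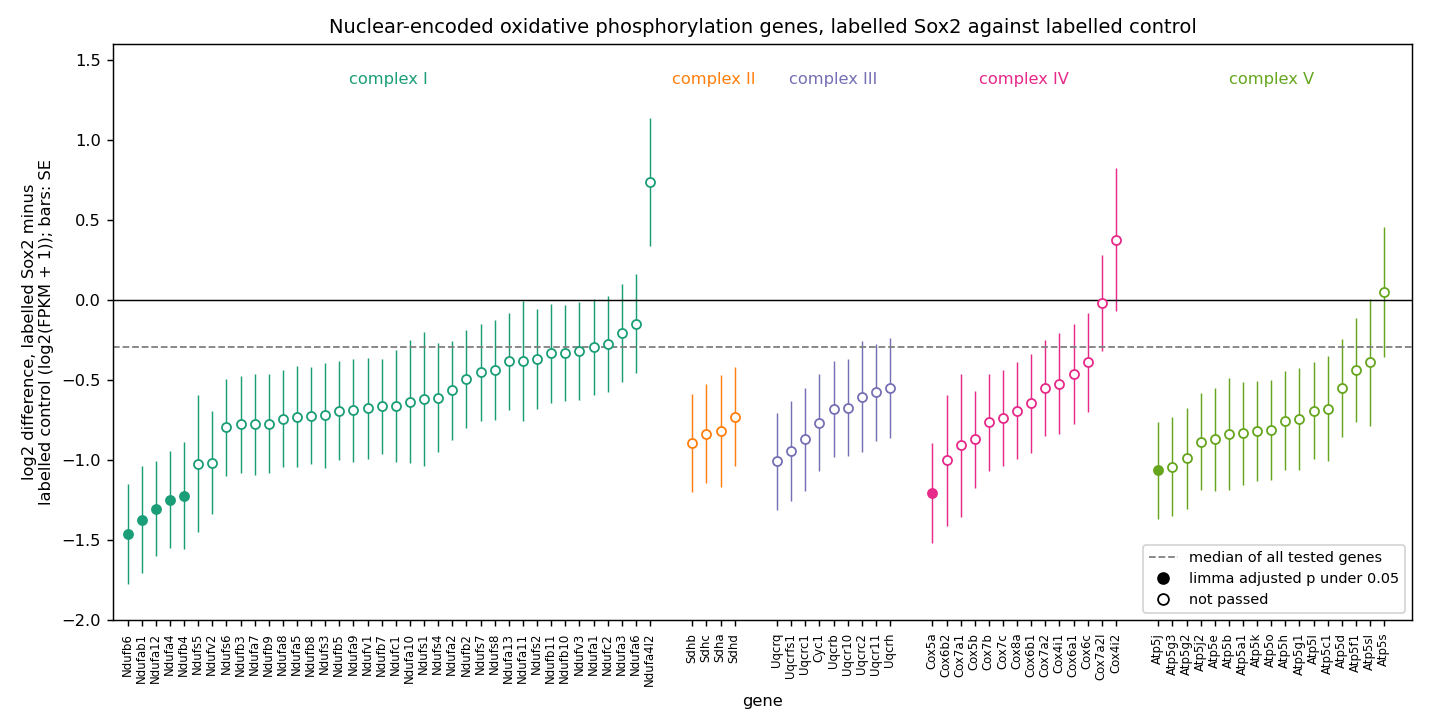
Log2 difference (labelled Sox2 minus labelled control, log2(FPKM + 1)) of the 82 tested genes, by complex; bars are the SE from limma, filled points passed an adjusted p under 0.05, and the dashed line is the median of all tested genes (-0.29). Most points of all 5 complexes lie below the dashed line, and 3 lie above 0: Ndufa4l2, Cox4i2 and Atp5s.

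Complex I, the largest complex, had 5 of its 38 genes called lower in limma (background 8.11%) and 0 higher, with a median log2 difference of -0.66 (-0.31 after median-of-ratios scaling) and 37 negative values. The background share means that nothing is read from this count, and the called genes are described one by one. Ndufb6 and Ndufb4 encode accessory subunits of the membrane arm, Ndufa12 an accessory subunit of the peripheral arm, Ndufab1 the mitochondrial acyl carrier protein, and Ndufa4 the complex IV protein named above. The 29 accessory genes had a median of -0.66 and 4 calls. The 7 nuclear core genes, which bind NADH, flavin, iron-sulphur clusters and ubiquinone, had a median of -0.62 and 0 calls. Both counts stand against the background of 8.11%. At an unadjusted p under 0.05 in limma, 14 of the 29 and 1 of the 7 were lower, where 21.1% of all tested genes were. The difference between the 2 classes was not tested.

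Ndufb6 (chromosome 4, 40270662 to 40279368 in mm10) had the largest difference of the set. It stood at 44.5 and 38.7 FPKM in Sox2-labelled libraries, against 133 and 101 FPKM in control-labelled libraries. The means were 41.6 ± 4.07 and 117 ± 22.4 FPKM (SD, n = 2 each), a level 2.82-fold lower, and limma put the log2 difference at -1.46 (SE 0.310, adjusted p = 0.0134). The groups did not overlap, and of the 4 libraries left out in turn the loss of labelled Sox2 replicate 2 ended the call (limma adjusted p = 0.0913). Ndufab1 (chromosome 7, 122088043 to 122101848), whose product is also needed for lipoic acid synthesis, had 24.4 and 16.4 FPKM in Sox2-labelled libraries and 59.5 and 48.1 FPKM in control-labelled libraries. Its log2 difference was -1.37 (SE 0.333, limma adjusted p = 0.0241), its groups did not overlap, and without labelled Sox2 replicate 2 the adjusted p in limma was 0.221.

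Ndufa12 (chromosome 10, 94199008 to 94220948) had nearly equal levels within each label. They were 41.7 and 43.0 FPKM in Sox2-labelled libraries and 101 and 111 FPKM in control-labelled libraries, with a log2 difference of -1.30 in limma (SE 0.297, adjusted p = 0.0183). Ndufa4 (chromosome 6, 11900372 to 11907446), the most abundant gene of the group, had 152 and 128 FPKM in Sox2-labelled libraries and 321 and 344 FPKM in control-labelled libraries. Its log2 difference was -1.25 (SE 0.304, limma adjusted p = 0.0244), and its level was 2.38-fold lower. Ndufb4 (chromosome 16, 37647601 to 37654368) was the least even of these genes, with 71.9 and 43.2 FPKM in Sox2-labelled libraries against 134 and 129 FPKM in control-labelled libraries. Its log2 difference was -1.22 (SE 0.333, limma adjusted p = 0.0375). In none of the 3 did the groups overlap, and without labelled Sox2 replicate 2 their adjusted p in limma was 0.0963 for Ndufa12, 0.142 for Ndufa4 and 0.317 for Ndufb4; Ndufa12 also lost its call without labelled Sox2 replicate 1 (0.0689) and Ndufa4 without labelled control replicate 2 (0.0538).

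Among the core subunits, Ndufv2, an iron-sulphur protein of the NADH module, came nearest to the threshold, with 21.5 and 16.2 FPKM in Sox2-labelled libraries and 39.3 and 38.2 FPKM in control-labelled libraries (log2 difference -1.01, limma adjusted p = 0.0621). Ndufv1, which binds NADH and flavin, had 34.7 and 27.1 FPKM in Sox2-labelled libraries and 46.6 and 52.7 FPKM in control-labelled libraries (log2 difference -0.68, limma adjusted p = 0.178). Ndufs1, the largest iron-sulphur subunit, was an exception to the separation of the labels. It had 14.5 and 9.15 FPKM in Sox2-labelled libraries and 26.6 and 12.4 FPKM in control-labelled libraries, which overlap, and Ndufa10 and Ndufa6 also overlapped. Ndufs5, an accessory subunit on the intermembrane side, was uneven within Sox2-labelled libraries, at 49.5 and 17.9 FPKM, against 65.9 and 57.8 FPKM in control-labelled libraries (limma adjusted p = 0.140). Ndufa3 was the complex I subunit after Ndufa4 in abundance, and it barely differed: 175 and 137 FPKM in Sox2-labelled libraries and 180 and 177 FPKM in control-labelled libraries (log2 difference -0.20, limma adjusted p = 0.708, and 0.15 after median-of-ratios scaling).

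**Figure D2:**
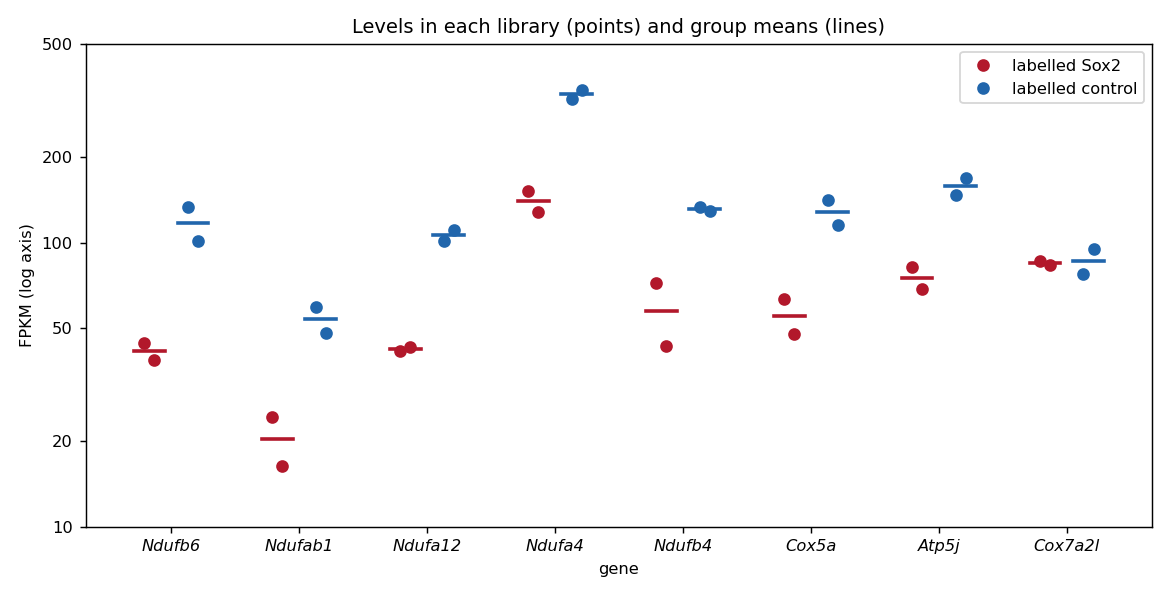
FPKM on a log axis of the 7 genes past the threshold and of Cox7a2l, one point per library, with a line at the mean of each label (n = 2). In the 7 genes both libraries labelled Sox2 lie below both labelled control; for Cox7a2l, at 86.4 and 83.6 FPKM against 77.8 and 94.97 FPKM, the labels overlap.

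Complex II, succinate dehydrogenase, is also an enzyme of the tricarboxylic acid cycle, and the nuclear genome encodes all of it. Its 4 genes lay close together, with log2 differences between -0.89 and -0.73 and a median of -0.83 (-0.48 after median-of-ratios scaling). None passed the adjusted threshold in limma, and all 4 were lower at an unadjusted p under 0.05, where 21.1% of all tested genes were.

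Sdha, the flavoprotein that oxidises succinate, had 33.7 and 19.7 FPKM in Sox2-labelled libraries and 52.2 and 41.1 FPKM in control-labelled libraries (limma adjusted p = 0.147). Sdhb, the iron-sulphur subunit, had 33.6 and 29.2 FPKM in Sox2-labelled libraries and 59.8 and 58.1 FPKM in control-labelled libraries (limma adjusted p = 0.0784). Sdhc and Sdhd anchor the enzyme in the membrane. Sdhc had 42.1 and 32.2 FPKM in Sox2-labelled libraries against 64.3 and 68.7 FPKM in control-labelled libraries (limma adjusted p = 0.101). Sdhd had 40.2 and 32.4 FPKM in Sox2-labelled libraries against 62.3 and 58.6 FPKM in control-labelled libraries (limma adjusted p = 0.142). In each of the 4 both libraries labelled Sox2 were below both labelled control, an order that 42.5% of all tested genes showed.

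In deposited FPKM the same order held for all 9 genes of complex III, against 42.5% of all tested genes. Their median log2 difference was -0.68 (-0.33 after median-of-ratios scaling). In limma 0 were called at the adjusted threshold (background 8.11% lower and 4.2% higher). At an unadjusted p under 0.05 in limma 6 were lower (background 21.1%). Uqcrq, a small subunit near the ubiquinone site, was the closest, with 86.6 and 71.8 FPKM in Sox2-labelled libraries and 157 and 162 FPKM in control-labelled libraries (log2 difference -1.01, limma adjusted p = 0.0515). The redox-active subunits did not pass the threshold either. Uqcrfs1, the Rieske iron-sulphur protein, had 37.8 and 28.3 FPKM in Sox2-labelled libraries against 63.9 and 63.6 FPKM in control-labelled libraries (log2 difference -0.94, limma adjusted p = 0.0724). Cyc1, cytochrome c1, had 48.7 and 40.4 FPKM in Sox2-labelled libraries against 78.1 and 74.1 FPKM in control-labelled libraries (log2 difference -0.76, limma adjusted p = 0.120). The structural core protein Uqcrc1 had 41.4 and 29.6 FPKM in Sox2-labelled libraries against 72.2 and 58.2 FPKM in control-labelled libraries (limma adjusted p = 0.0995).

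The most abundant genes of complex III differed less. Uqcr11, the smallest subunit, had 139 and 128 FPKM in Sox2-labelled libraries and 184 and 215 FPKM in control-labelled libraries (log2 difference -0.58, limma adjusted p = 0.230). Uqcrh, the hinge protein that helps cytochrome c to dock, had 123 and 94.8 FPKM in Sox2-labelled libraries and 142 and 177 FPKM in control-labelled libraries (log2 difference -0.55, limma adjusted p = 0.269).

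Complex IV is the complex with tissue-specific versions of its subunits. Of its 14 tested genes 1 was called lower and 0 higher in limma, against 8.11% and 4.2% of all tested genes. A negative difference was found in 13, and the median was -0.67 (-0.32 after median-of-ratios scaling). The called gene, Cox5a (chromosome 9, 57521231 to 57532426), encodes a matrix-side subunit. It had 63.2 and 47.6 FPKM in Sox2-labelled libraries against 142 and 115 FPKM in control-labelled libraries, a level 2.32-fold lower (log2 difference -1.21, SE 0.313, limma adjusted p = 0.0311). Leaving out labelled Sox2 replicate 2 ended the call (limma adjusted p = 0.231), as did leaving out labelled control replicate 1 (0.0663). Its partner Cox5b, which holds a zinc ion, had 123 and 97.7 FPKM in Sox2-labelled libraries and 197 and 206 FPKM in control-labelled libraries (log2 difference -0.87, limma adjusted p = 0.0846).

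The common versions of the switched subunits were abundant, and none passed the adjusted threshold. Both libraries labelled Sox2 lay below both labelled control, as in 42.5% of all tested genes. Cox4i1 had 299 and 275 FPKM in Sox2-labelled libraries and 370 and 461 FPKM in control-labelled libraries (limma adjusted p = 0.296). Cox6a1 had 319 and 288 FPKM in Sox2-labelled libraries and 388 and 449 FPKM in control-labelled libraries (limma adjusted p = 0.358). Cox6b1, which helps the enzyme to pair up as a dimer, was next in abundance. It had 213 and 172 FPKM in Sox2-labelled libraries and 285 and 315 FPKM in control-labelled libraries (limma adjusted p = 0.191). Cox8a had 185 and 159 FPKM in Sox2-labelled libraries and 263 and 291 FPKM in control-labelled libraries (limma adjusted p = 0.158). In deposited FPKM these 4 genes thus shared their order of libraries, with labelled control replicate 2 highest and labelled Sox2 replicate 2 lowest. That order depends on the scaling of the libraries and was not redone after it. With median-of-ratios scaling the log2 differences were -0.17 for Cox4i1, -0.11 for Cox6a1, -0.29 for Cox6b1 and -0.34 for Cox8a. Cox7a2 had 66.3 and 57.7 FPKM in Sox2-labelled libraries and 95.9 and 86.6 FPKM in control-labelled libraries (limma adjusted p = 0.248), and Cox7b had 38.6 and 34.5 FPKM in Sox2-labelled libraries and 60.8 and 64.6 FPKM in control-labelled libraries (limma adjusted p = 0.119).

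Cox7a2l, the relative of Cox7a2 that joins complexes III and IV into supercomplexes, stood apart from the other abundant genes. It had 86.4 and 83.6 FPKM in Sox2-labelled libraries and 77.8 and 94.97 FPKM in control-labelled libraries. The log2 difference was -0.02 (SE 0.301, limma adjusted p = 0.977), with 0.33 after median-of-ratios scaling (limma adjusted p = 0.493), so its sign depends on the scaling. A p above the threshold does not show that it was equal in both labels.

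The tissue-specific versions were scarce. Cox4i2, the version known for its expression in lung and its dependence on oxygen, had 5.996 and 3.49 FPKM in Sox2-labelled libraries and 4.91 and 2.15 FPKM in control-labelled libraries, which overlap (log2 difference 0.38, limma adjusted p = 0.624). Cox6b2, the testis version, had 8.98 and 4.10 FPKM in Sox2-labelled libraries and 12.8 and 13.8 FPKM in control-labelled libraries (log2 difference -1.00, limma adjusted p = 0.130). Cox7a1 is the heart and muscle version. It had 1.37 and 4.01 FPKM in Sox2-labelled libraries and 5.52 and 5.41 FPKM in control-labelled libraries (log2 difference -0.91, limma adjusted p = 0.201). Cox6a2, another muscle version, was not tested, with 2.04 and 0.413 FPKM in Sox2-labelled libraries and 0.154 and 0.224 FPKM in control-labelled libraries. The zeros in all 4 libraries were those of another muscle version, Cox8b, and of the testis versions Cox7b2 and Cox8c. Markers of striated muscle (11 genes) summed to 5.13 to 5.63 FPKM in Sox2-labelled libraries and 3.61 to 5.92 FPKM in control-labelled libraries, and male germ cell markers (6 genes, with Tnp1 and Pgk2 at 0) to 0.762 to 0.941 FPKM in Sox2-labelled libraries and 0.188 to 0.536 FPKM in control-labelled libraries. Markers of pericytes and smooth muscle (10 genes) summed to 23.5 to 49.5 FPKM in Sox2-labelled libraries and 14.5 to 28.9 FPKM in control-labelled libraries.

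Within a library, the level of a scarce version as a percent of its common partner does not depend on the scaling of the library. Ndufa4l2, a relative of Ndufa4 known to be induced by low oxygen, separated the labels on this measure. It amounted to 1.67% and 1.82% of Ndufa4 in Sox2-labelled libraries, against 0.480% and 0.196% in control-labelled libraries. Ndufa4l2 itself had 2.54 and 2.34 FPKM in Sox2-labelled libraries and 1.54 and 0.676 FPKM in control-labelled libraries (log2 difference 0.74, limma adjusted p = 0.249), so both the gene and its partner enter the ratio. Cox6a2 as a percent of Cox6a1 also separated the labels, at 0.639% and 0.144% in Sox2-labelled libraries and 0.0397% and 0.0499% in control-labelled libraries, from a gene near the limit of detection. The remaining pairs overlapped or nearly met. Cox4i2 was 2.00% and 1.27% of Cox4i1 in Sox2-labelled libraries and 1.33% and 0.466% in control-labelled libraries. Cox6b2 lay the other way, at 4.22% and 2.39% of Cox6b1 in Sox2-labelled libraries and 4.49% and 4.38% in control-labelled libraries, with little room between the nearest libraries. Cox7a1 was 2.07% and 6.95% of Cox7a2 in Sox2-labelled libraries and 5.76% and 6.25% in control-labelled libraries. The listed positions of Ndufa4l2, Cox6a2 and Cox4i2 overlap those of Shmt2, Itgad and Bcl2l1, so fragments of those neighbours could enter these low values.

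**Figure D3:**
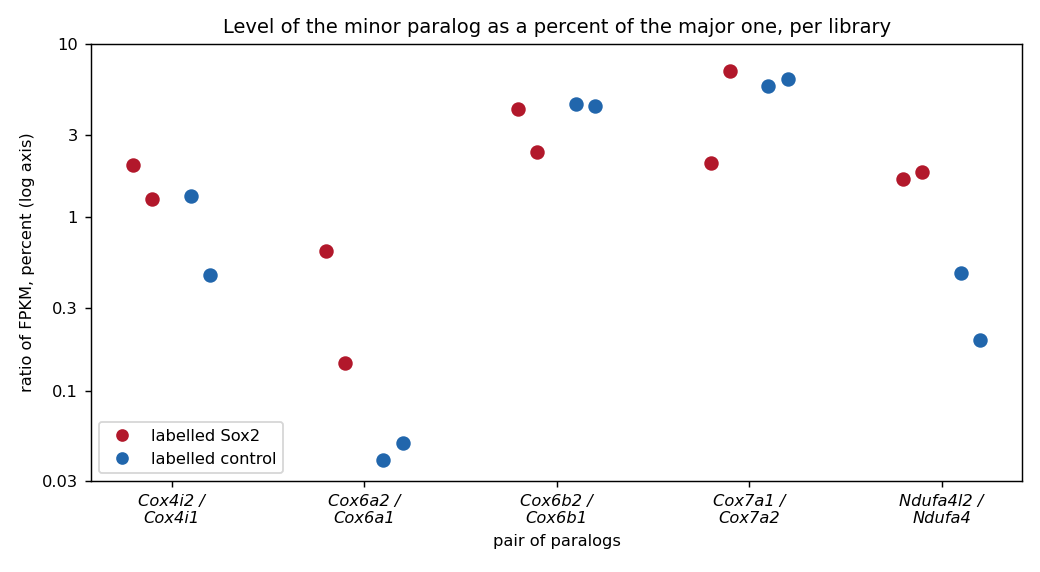
FPKM of the scarce version as a percent of its common partner on a log axis, one point per library. For Ndufa4l2 over Ndufa4 the libraries labelled Sox2 (1.67% and 1.82%) lie above those labelled control (0.480% and 0.196%), while Cox4i2 over Cox4i1 and Cox7a1 over Cox7a2 overlap.

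Complex V had 1 of 17 genes called lower and 0 higher in limma, against 8.11% and 4.2% of all tested genes. At an unadjusted p under 0.05 in limma 12 were lower (background 21.1%). The median log2 difference was -0.81 (-0.46 after median-of-ratios scaling). The 5 genes of the F1 head, which makes ATP, and the 10 genes of the membrane part and stalks had medians of -0.83 and -0.82. Atp5j (chromosome 16, 84827870 to 84835574), coupling factor 6 of the peripheral stalk, was the called gene. It had 82.0 and 68.4 FPKM in Sox2-labelled libraries and 148 and 168 FPKM in control-labelled libraries (log2 difference -1.06, SE 0.303, limma adjusted p = 0.0438). Its listed position overlaps that of Gabpa, which encodes an ETS-family activator of mitochondrial genes, so fragments of that gene could enter its value. The call ended without labelled Sox2 replicate 1 (limma adjusted p = 0.0824), labelled Sox2 replicate 2 (0.261) or labelled control replicate 2 (0.127).

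The c ring that turns in the membrane is encoded by 3 genes with the same mature protein. Atp5g3 had 178 and 139 FPKM in Sox2-labelled libraries and 340 and 310 FPKM in control-labelled libraries (log2 difference -1.04, limma adjusted p = 0.0517). Atp5g2 had 163 and 133 FPKM in Sox2-labelled libraries and 258 and 333 FPKM in control-labelled libraries (log2 difference -0.99, limma adjusted p = 0.0637). Atp5g1, the version whose expression is known to follow energy demand, was the scarcest. It had 54.0 and 39.7 FPKM in Sox2-labelled libraries and 86.5 and 70.7 FPKM in control-labelled libraries (log2 difference -0.74, limma adjusted p = 0.146). In each of the 3 both libraries labelled Sox2 lay below both labelled control, against 42.5% of all tested genes.

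In the head, the catalytic subunit Atp5b had 278 and 202 FPKM in Sox2-labelled libraries and 530 and 338 FPKM in control-labelled libraries (log2 difference -0.84, limma adjusted p = 0.139). Atp5a1, the alpha subunit beside it, had 136 and 96.6 FPKM in Sox2-labelled libraries and 231 and 181 FPKM in control-labelled libraries (log2 difference -0.83, limma adjusted p = 0.113). Atp5e, the small epsilon subunit of the rotor, was the most abundant after Atp5b. It had 273 and 195 FPKM in Sox2-labelled libraries and 419 and 426 FPKM in control-labelled libraries (log2 difference -0.87, limma adjusted p = 0.0992). Atp5s, coupling factor B and no part of the enzyme's core, had 3.21 and 1.64 FPKM in Sox2-labelled libraries and 2.15 and 2.30 FPKM in control-labelled libraries, which overlap.

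The promoters of respiratory genes are known for sites of NRF1, of ETS factors such as GABPA, and of YY1, and their windows were searched on both strands for 3 motifs, GCATGCGC for NRF1, CCGGAAGT for ETS factors and AAGATGGCG for YY1, from 250 bases before to 50 bases after the start in RefSeq (GRCm38.p6, the assembly of mm10). Windows were found for 67 of the genes. The NRF1 motif was in 10 of them (14.9%, against 6.09% of the 9035 tested genes with a window), the ETS motif in 5 (7.46% against 9.24%) and the YY1 motif in 7 (10.4% against 3.71%); over all 27025 genes of the table the shares were 3.05%, 4.31% and 1.64%. Of the 67, 21 (31.3%) held at least 1 motif, against 17.7% of the tested genes with a window, and of the 7 genes called lower 1 did, Atp5j. The windows of 140 bases below run from 120 before to 20 after the start and show the largest difference (Ndufb6), a uniform complex II gene with the NRF1 motif (Sdhb), the gene with both NRF1 and ETS motifs (Uqcr11), the called gene with the YY1 motif (Atp5j, the second of its 2 listed starts) and the gene that barely differed (Cox7a2l). Capitals mark a match to a searched motif on either strand, and a match is a description of letters, not of binding.
Ndufb6, chr4:40279402-40279541, minus strand: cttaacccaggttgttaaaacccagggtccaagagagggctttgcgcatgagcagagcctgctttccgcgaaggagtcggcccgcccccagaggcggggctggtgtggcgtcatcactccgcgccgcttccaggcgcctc
Sdhb, chr4:140961151-140961290, plus strand: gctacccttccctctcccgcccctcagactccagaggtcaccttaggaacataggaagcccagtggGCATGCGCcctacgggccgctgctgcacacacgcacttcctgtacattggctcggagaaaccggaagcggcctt
Uqcr11, chr10:80406802-80406941, minus strand: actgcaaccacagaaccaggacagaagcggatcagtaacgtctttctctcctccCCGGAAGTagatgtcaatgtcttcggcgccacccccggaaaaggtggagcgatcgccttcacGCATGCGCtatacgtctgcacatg
Atp5j, chr16:84834957-84835096, minus strand: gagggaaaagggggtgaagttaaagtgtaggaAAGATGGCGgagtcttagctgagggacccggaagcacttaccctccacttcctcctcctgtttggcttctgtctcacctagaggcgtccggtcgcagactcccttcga
Cox7a2l, chr17:83514314-83514453, minus strand: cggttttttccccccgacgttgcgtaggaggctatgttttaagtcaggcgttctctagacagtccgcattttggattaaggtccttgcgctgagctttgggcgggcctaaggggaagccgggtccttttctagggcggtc

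The genes share features that the choice by name did not use: their transcripts are short and most of them are abundant. Their median length was 775.5 bases (81 genes with a length, quartiles 571 and 1363), against 2879 bases over 11179 tested genes with a length. The median of short transcripts in general stood lower in Sox2-labelled libraries, where 77.5% of all tested genes below 1000 bases had a negative difference. Over all tested genes, the median log2 difference was -0.79 below 500 bases, -0.63 from 500 to 1000, -0.45 from 1000 to 2000, -0.32 from 2000 to 4000 and -0.13 from 4000 upward. The same lengths also separated the libraries labelled control from each other, with medians of replicate 2 minus replicate 1 of 0.20, -0.01, -0.21, -0.34 and -0.44 in the same bins. Between the libraries labelled Sox2 no such order was seen, with medians of replicate 2 minus replicate 1 of -0.33, -0.36, -0.41, -0.40 and -0.30. Below 1000 bases the 51 respiratory genes had a median of -0.69, with 6 of them (11.8%) called lower in limma, and the 636 genes that are neither in the set nor ribosomal proteins a median of -0.56, with 117 (18.4%) called lower. The 23 respiratory genes of 1000 to 2000 bases had a median of -0.69, against -0.44 for 2433 other genes, and the 7 of 2000 to 4000 bases, too few to carry a trend, -0.82 against -0.31. A mean of at least 50 FPKM was reached by 55 of the 82 respiratory genes and by 1112 of all 12040 tested genes. Over all tested genes the median log2 difference also fell with abundance. It was -0.17 from 1 to 5 FPKM, -0.31 from 5 to 20, -0.43 from 20 to 50 and -0.56 from 50 upward. Among genes of at least 50 FPKM, the 55 respiratory genes had a median of -0.72 and 975 others -0.47. The parts of length and abundance in the difference were not tested.

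Removing the trend with length from each library brought most of the set near to 0. The median log2 difference was then -0.10 and 47 of 81 genes were negative, against a median of 0.00 over all genes. The removal also recentres each library on all genes, so the move from -0.69 to -0.10 includes that recentring. Median-of-ratios scaling alone, which recentres without regard to length, left a median of -0.35. In limma 1 gene stayed lower, Ndufab1, whose transcript is long at 3479 bases (log2 difference -1.12, adjusted p = 0.0206), where 6.6% of all genes were, and 1 was higher, Ndufa4l2 (1.33, adjusted p = 0.0361), where 9.17% were. Complex II kept the lowest median, -0.43, and complex IV came to 0.05. The removal also takes away any difference that the respiratory genes share with other short genes, and what lies behind the trend was not tested.

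**Figure D4:**
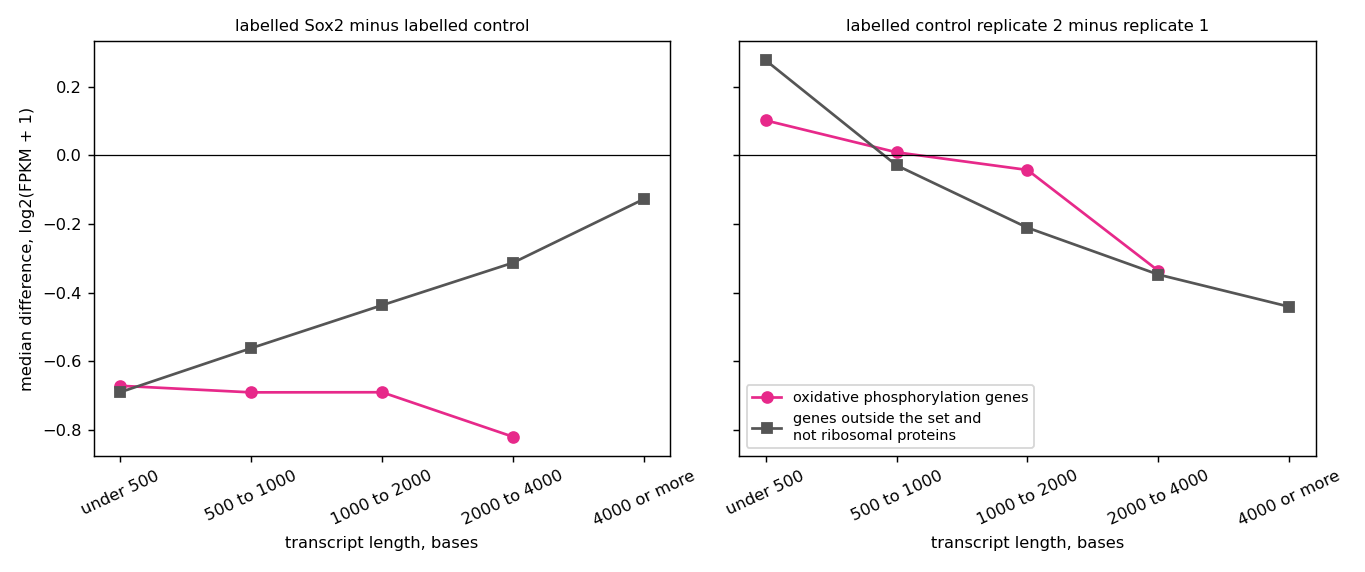
Median difference in log2(FPKM + 1) by transcript length in bases, for the respiratory genes (9, 42, 23 and 7 per bin) and for genes that are neither in the set nor ribosomal proteins; left, labelled Sox2 minus labelled control, and right, labelled control replicate 2 minus replicate 1. On the left the other genes run from -0.69 below 500 bases to -0.13 from 4000 upward, while the respiratory genes stay between -0.67 and -0.82; on the right both lines fall with length, an order not seen between the libraries labelled Sox2 (not drawn).

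**Figure D5:**
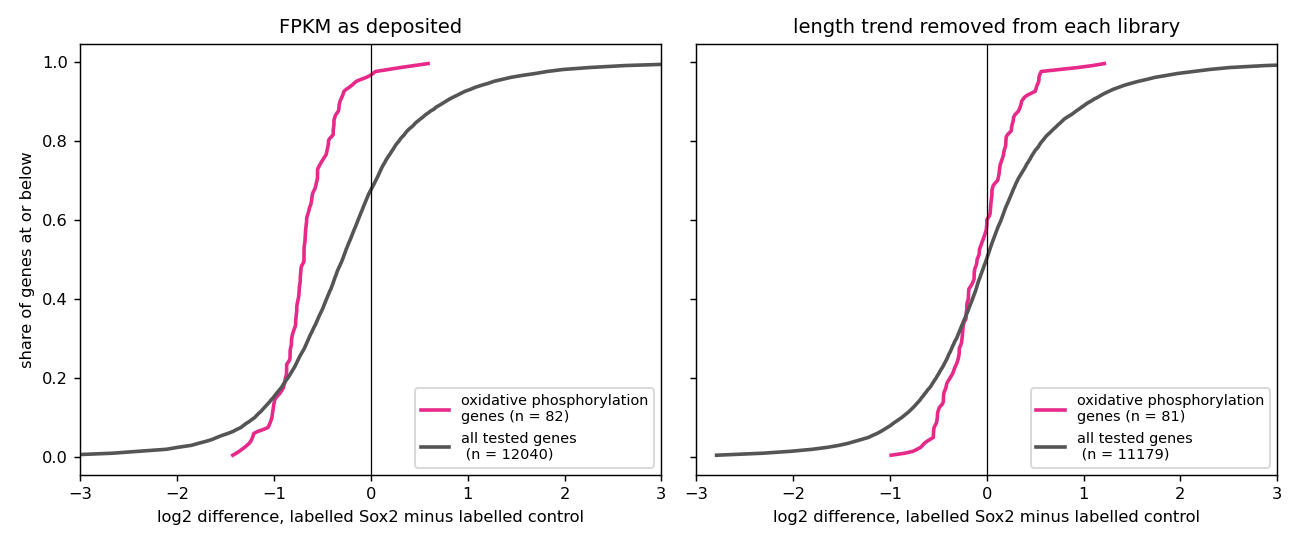
Share of genes (vertical axis) at or below each log2 difference, labelled Sox2 minus labelled control, for the respiratory genes and all tested genes. With the deposited FPKM (left) the respiratory curve rises steeply around its median of -0.69, left of the all-gene median of -0.29. With the length trend removed (right), a step that also recentres each library on all genes, it rises around -0.10.

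Genes that work with the complexes showed similar medians in deposited FPKM. With the length trend removed, the medians were -0.39 for assembly factors, -0.31 for carriers, -0.27 for the tricarboxylic acid cycle and -0.33 for regulators of mitochondrial gene expression. The respiratory genes had -0.10 in that setting. With median-of-ratios scaling the medians were -0.42, -0.50, -0.35 and -0.23 in the same order, against -0.35. The background for the counts that follow is 8.11% lower and 4.2% higher. For counts of lower genes it is 5.7% with median-of-ratios scaling and 6.6% with the length trend removed. Of 43 tested assembly factors, 5 were lower (11.6%) and 0 higher in limma (median -0.67), with 2 lower after median-of-ratios scaling and 1 with the length trend removed. They were led by the copper chaperone Cox17, with 55.2 and 54.3 FPKM in Sox2-labelled libraries and 154 and 167 FPKM in control-labelled libraries (log2 difference -1.53, limma adjusted p = 0.00882), the complex I assembly factor Acad9 (-1.45, limma adjusted p = 0.0284) and Cox14 (-1.28, limma adjusted p = 0.0321). Cox14 lost its call with median-of-ratios scaling (limma adjusted p = 0.139), quantile normalization (0.108), an equal sum without small RNA genes (0.0873) and the length trend removed (0.161), and Cox17 with the length trend removed (0.0605). Without labelled Sox2 replicate 2 the adjusted p in limma was 0.0492 for Cox17, 0.239 for Acad9 and 0.199 for Cox14; Acad9 and Cox14 also lost their calls without labelled Sox2 replicate 1 (0.0775 and 0.0742), Acad9 without labelled control replicate 1 (0.0927) and Cox14 without labelled control replicate 2 (0.149). The list of carriers held genes for cytochrome c, ubiquinone synthesis and the carriers of ADP and phosphate, with the Etf and Vdac genes, Atpif1 and Usmg5. Of its 21 tested genes, 0 passed in limma in either direction, and the median was -0.84. At an unadjusted p under 0.05 in limma 11 were lower and 0 higher, against 21.1% and 8.47% of all tested genes. The ADP/ATP carrier Slc25a5 had 162 and 113 FPKM in Sox2-labelled libraries and 349 and 240 FPKM in control-labelled libraries (limma adjusted p = 0.0584), and the phosphate carrier Slc25a3 had 179 and 132 FPKM in Sox2-labelled libraries and 303 and 263 FPKM in control-labelled libraries (limma adjusted p = 0.0932). For comparison, the medians were -0.91 for 83 cytosolic and -0.91 for 77 mitochondrial ribosomal protein genes and -0.77 for 16 glycolytic genes, with 10 (12%), 18 (23.4%) and 3 (18.8%) called lower in limma and 0 called higher in each. Median-of-ratios scaling left 6, 11 and 2 called lower and medians of -0.55, -0.59 and -0.42, and the removal of the length trend left 6, 5 and 2 called lower and medians of -0.26, -0.49 and -0.47.

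In the tricarboxylic acid cycle, which feeds the chain, 2 of 18 tested genes were lower and 0 higher in limma (median -0.68). With median-of-ratios scaling 3 were lower (background 5.7%), and with the length trend removed 4 were (background 6.6%). Pcx, pyruvate carboxylase, which refills the cycle, had 5.46 and 5.56 FPKM in Sox2-labelled libraries and 25.01 and 59.6 FPKM in control-labelled libraries (log2 difference -2.61, limma adjusted p = 0.00365). Idh2, the NADP-dependent isocitrate dehydrogenase of mitochondria, had 57.2 and 33.6 FPKM in Sox2-labelled libraries and 142 and 137 FPKM in control-labelled libraries (log2 difference -1.65, limma adjusted p = 0.0113). Among 18 tested regulators of mitochondrial gene expression (median -0.53) 1 was lower in limma, Myc, with 9.46 and 6.37 FPKM in Sox2-labelled libraries and 19.4 and 31.1 FPKM in control-labelled libraries (log2 difference -1.54, limma adjusted p = 0.0241), and 0 were higher. Leaving out labelled Sox2 replicate 2 ended the calls of Idh2 (limma adjusted p = 0.104) and Myc (0.207) but not that of Pcx (0.0129), and Myc also lost its call without labelled control replicate 2 (0.0974), with median-of-ratios scaling (0.0708), quantile normalization (0.0605) or an equal sum without small RNA genes (0.0549), and with the length trend removed (0.0665).

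The hypoxia-linked list split: of 9 tested genes (median -0.24, and 0.09 after median-of-ratios scaling), 1 was higher and 1 lower in limma. Epas1, the hypoxia factor HIF-2 alpha, which is also strongly expressed in endothelium, was higher, with 35.6 and 29.7 FPKM in Sox2-labelled libraries and 13.4 and 11.4 FPKM in control-labelled libraries (log2 difference 1.33, limma adjusted p = 0.0249). Endothelial markers (6 genes, 2 of them higher in limma) summed to 47.5 to 104 FPKM in Sox2-labelled libraries and 11.5 to 31.9 FPKM in control-labelled libraries, and their part in this was not tested. Pdk1, the kinase that holds pyruvate back from the cycle, was lower, with 4.75 and 3.25 FPKM in Sox2-labelled libraries and 17.3 and 13.9 FPKM in control-labelled libraries (log2 difference -1.74, limma adjusted p = 0.0139). Of 10 tested genes of uncoupling and superoxide defence (median -0.23, and 0.11 after median-of-ratios scaling) 1 was lower and 0 higher in limma, namely Txn2, mitochondrial thioredoxin, with 26.4 and 25.4 FPKM in Sox2-labelled libraries and 81.5 and 79.6 FPKM in control-labelled libraries (log2 difference -1.60, limma adjusted p = 0.00778). None of these 3 calls held without labelled Sox2 replicate 2 (limma adjusted p = 0.126 for Epas1, 0.145 for Pdk1 and 0.0526 for Txn2), and that of Epas1 also ended without labelled Sox2 replicate 1 (0.140) or labelled control replicate 2 (0.0538).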

How the data were processed

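Poly-A RNA libraries of sorted AT1 cells were sequenced on an Illumina HiSeq2000, per the labels' protocols. The deposited values are FPKM for each gene, with a low and a high bound to each value, per the file headers. The tools named are TopHat2, Bowtie2, Cufflinks and Cuffdiff and the build is mm10, per the submitters' processing notes; the sources used here do not give their versions, the gene annotation or the strand setting. No read counts were used, so depth is unknown. The median half-width of the bounds over the respiratory genes was 6.28% and 10.1% for Sox2-labelled libraries and 5.60% and 6.86% for control-labelled libraries, so replicate 2 of each label is the less precise. A further table holds 2 columns, of which the labels do not say which group each belongs to, and was not used.

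Tables were joined by symbol and position (24490 entries each), entries of a symbol were added (267 genes), and 1 gene with a value marked as failed was left out. All 12040 genes that reached a mean of 1 FPKM were tested on log2(FPKM + 1), a scale that understates the change of low genes, in limma 3.58.1 under R 4.3.3 (lmFit, eBayes with trend), two-sided, adjusted over all of them by Benjamini-Hochberg and a threshold of 0.05. With 2 libraries against 2, the smallest p that exact permutation of 1 gene allows is 0.333, so none was run. The fit was also run on simulated data with known changes, the outcome of which is not given here. The simulated noise was independent between genes and libraries, with no shift of a whole library and no trend with length. That run therefore does not bear on such shifts or trends.

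The gene set and the lists were chosen with earlier results of these data known. Full values are given for the 2 most abundant genes and up to 2 largest calls in each direction of each complex, for subunits with tissue versions and for the Sdh genes, 32 in all; a further 12, Ndufa12 and Ndufb4 among them, were added after their values were seen. Of other lists, up to 3 called genes or else the 2 most abundant are named. Of the 86 genes, 14 have a listed position that overlaps another listed gene; without a stated strand setting their fragments could be shared. Transcript lengths are medians over protein-coding GENCODE M21 transcripts with a RefSeq accession (81 of 82 tested respiratory genes, 92.8% of all tested genes). The length trend was a lowess curve (span 0.3) per library. The planned comparison of subunit protein sequences was not made. Alternatives were median-of-ratios and quantile scaling, a pseudocount of 0.1, no filter and a filter at a mean of 5 FPKM, robust and trend-free variance models, a replicate block, and leaving out each library; scaling to an equal sum without small RNA genes and the removal of the length trend were added after seeing the data.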

Additional observations from a re-analysis of the deposited data

How the results depend on the processing

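The number of respiratory genes called lower in limma, 7, was 2 with median-of-ratios scaling, 0 with no filter on low values, 11 with a robust variance model, 4 with a variance model without trend and 1 with the length trend removed, the setting that also called 1 higher. With no filter limma called 0 genes higher and 3 lower of all listed genes tested. Of all tested genes, limma called 8.11% lower as deposited, 5.7% with median-of-ratios scaling and 6.6% with the length trend removed, where 9.17% were higher. For the other variance models, the replicate block and the libraries left out, that share is not given here. The counts in those settings are therefore no result about these genes. Leaving out each library in turn gave 0 to 7 lower (0 without labelled Sox2 replicate 2), 0 to 0 higher and a median log2 difference from -0.85 to -0.52. The median, -0.69, was -0.35 with median-of-ratios scaling, -0.39 with quantile normalization, -0.40 with an equal sum without small RNA genes and -0.10 with the length trend removed. Without labelled control replicate 2, the library rich in small RNA, 5 were lower and the median was -0.72. The replicate number as a block gave 27 lower; deviations of same-numbered libraries correlated at r = 0.234 over genes, no label gives the number a meaning, and there are only 2 pairs, so this is no evidence of pairing. Over all respiratory genes, 79 of 82 differences were negative as deposited, 71 with median-of-ratios scaling, 72 with quantile normalization, 74 with an equal sum and 47 of 81 with the length trend removed. Among the genes given with full values, the sign turned with the length trend removed for Cox4i1 (0.13), Cox6a1 (0.26), Cox6b1 (0.054), Cox7a2 (0.13), Cox7a2l (0.54), Cox8a (0.037), Ndufa3 (0.54), Uqcr11 (0.20) and Uqcrh (0.18); with median-of-ratios scaling for Cox7a2l (0.33) and Ndufa3 (0.15); with quantile normalization for Cox7a2l (0.29) and Ndufa3 (0.10); with an equal sum for Cox7a2l (0.28) and Ndufa3 (0.092); and with a library left out for Cox4i2 (range -0.076 to 0.83) and Cox7a2l (range -0.16 to 0.13). Of 725 values of single genes under an alternative, 611 kept their direction and their side of the threshold, 70 lost the call, 26 gained one and 18 turned. The cause of each was not tested. Where a library was left out, the effects of fewer libraries and of that library's own values cannot be told apart. Unknown depth and 2 libraries per label limit what the single-gene tests could call.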

Other observations

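The respiratory genes lie on 19 chromosomes, 3 of them on the X chromosome and at most 10 on one (chromosome 7). As a share of the summed FPKM without small RNA genes they took 2.08% and 2.05% in Sox2-labelled libraries and 2.60% and 2.93% in control-labelled libraries. Pearson's r of log2 transcript length with 3 differences is given as a description over genes that share their libraries. Across the 81 respiratory genes with a length it was -0.079 with the difference between labels. It was -0.208 with the difference between the libraries labelled Sox2 and -0.453 with that between the libraries labelled control. Over the 11179 tested genes with a length the values were 0.150, 0.123 and -0.184.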
